A study of Mus musculus with 38 samples.

Results

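The genes described here build cholesterol and fatty acids or control and export sterols. The set was a list of 34 mouse gene symbols, taken by name from each RNA table and not by any measured value. Of these, 33 had 1 entry each among the 23700 entries per table, and all 33 were among the 11121 entries that passed the filter of at least 1 FPKM in at least 2 libraries. FPKM counts sequenced fragments, scaled to the length of the transcript and to the depth of the library. The exception was Hmgcs1, the enzyme that makes HMG-CoA. It was listed only as 2 entries on an unplaced piece of chromosome 13, at 0 in every library, and no value of it was used. By role, 7 measured genes act between acetyl-CoA and squalene, 10 between squalene and cholesterol, 5 in SREBP control and sterol transfer, 9 in fatty acid synthesis and desaturation, and 2 in sterol efflux.

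RNA came from naive CD4 T cells of C57BL/6J mice, sorted from spleen and lymph nodes and polarised in culture. The study asked how STAT proteins and lineage-defining factors shape active enhancers and expression in helper T cells. Cells without a retrovirus were grown for 7 days and restimulated for 2 h through CD3 and CD28, with IL-12 for Th1 and IL-4 for Th2. The Th1 groups were WT (2 libraries), STAT4 KO and T-bet KO, and the Th2 groups WT and STAT6 KO, with 1 library each unless stated. The knockouts carried the alleles that the labels name STAT4 tm1, Tbet tm1 and Stat6 tm1. Another 8 groups of 1 library each were transduced with a pMY-IRES-hNGFR retrovirus: Th1 cells of both WT and STAT4 KO mice received the empty control vector or T-bet, and Th2 cells of both WT and STAT6 KO mice received the control vector or GATA3. The vector marks cells with a human NGFR that lacks its intracellular part. These vector cultures are labelled as 5 days. A second label on those of Th1 gives 7 days and a 2 h restimulation, and no restimulation is named for those of Th2. They were also kept in IL-2, so day, virus and medium differ together between cultures with and without a vector. How many mice stand behind a library is not stated in the labels.

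With 1 library in 12 of the 13 groups, p-values set each estimate only against departures of these libraries from additive effects. Those departures may be technical. The libraries WT Th1 replicate 2 and T-bet KO Th1 stood apart from the other 12. Over the tested entries they correlated at 0.976 with each other and at 0.676 to 0.801 with the rest, whose pairwise correlations were 0.856 to 0.99. The tests below therefore used the other 12 libraries unless said otherwise. All 14 were among the other settings tried. Calls lost with them are marked for genes of the set and for some neighbouring lipid genes. All 7 T cell markers exceeded 10 FPKM in every library. Summed myeloid markers ranged from 0.266 to 8.76 FPKM and summed fibroblast and epithelial markers from 0.559 to 23.1 FPKM. Among the targeted genes, Tbx21, which encodes T-bet, stood at 4.18 FPKM in T-bet KO and at 88.4 and 153 in WT Th1. Stat4 stood at 6.71 to 17.5 FPKM in the STAT4 KO libraries and at 37.1 to 60.8 in their WT partners. Stat6 did not separate the genotypes without a vector, at 34.6 FPKM in STAT6 KO and 35.6 in WT Th2, and was 23.3 and 36.1 against 48.0 and 65.9 in the vector cultures. A gene-level value can include exons that the allele leaves in place. The interval that Cufflinks deposits around each value covers counting error only. For genes between 1 and 10 FPKM its median half-width was 8.25% to 10.8% of the level, and between 10 and 100 FPKM 3.71% to 4.78%.

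Cells make cholesterol from acetyl-CoA through mevalonate and squalene. When sterol in the endoplasmic reticulum is low, Scap carries the membrane-bound factors SREBP1 and SREBP2 (genes Srebf1 and Srebf2) to the Golgi, where they are cut and released to switch on the enzyme genes. Insig proteins hold Scap back when sterol is plentiful, and Insig1 is itself an SREBP target. LXR receptors answer the opposite state by inducing the exporters Abca1 and Abcg1. Activated T cells are known to raise lipid synthesis as they grow and divide.

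SREBP acts together with NF-Y, which binds the CCAAT box, and with Sp1. The 250 bases before the annotated start were read from RefSeq promoters (GRCm38.p6, while the expression files use mm9) for 26 of the 34 genes, which have 32 promoters. The CCAAT box was present on either strand in 20 of the 32 promoters (62.5%), against 33.85% of all 32851 promoters of the table. The Sp1 box GGGCGG was in 24 of 32 (75.0%), against 32.74%, and the E-box CACGTG, which SREBP can also bind, in 6 of 32 (18.75%), against 6.021%. The sterol regulatory element TCACNCCAC was found in 1 of 32 (3.125%), that of Hmgcs1, against 1.053%, and the LXR element, a direct repeat with a 4-base gap, in none, against 0.01522%. These are matches of letters on both strands, with overlaps between motifs allowed, and describe no binding. The promoters of the whole table were not matched to the set for expression or base composition, so the shares are not particular to SREBP targets. The 4 promoters below belong to genes lower in STAT6 KO than in WT in every matched culture, and they show how the box is placed. CCAAT or its reverse complement ATTGG is in capitals, and each runs 5′ to 3′ on the gene's strand, ending at the base before the start.
Lss, chr10:76531355-76531604, plus strand: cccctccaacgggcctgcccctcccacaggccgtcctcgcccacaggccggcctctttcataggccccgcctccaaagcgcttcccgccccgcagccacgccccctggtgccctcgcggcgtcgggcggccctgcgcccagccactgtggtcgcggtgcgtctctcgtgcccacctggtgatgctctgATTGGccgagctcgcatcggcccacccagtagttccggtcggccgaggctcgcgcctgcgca
Cyp51, chr5:4104698-4104947, minus strand: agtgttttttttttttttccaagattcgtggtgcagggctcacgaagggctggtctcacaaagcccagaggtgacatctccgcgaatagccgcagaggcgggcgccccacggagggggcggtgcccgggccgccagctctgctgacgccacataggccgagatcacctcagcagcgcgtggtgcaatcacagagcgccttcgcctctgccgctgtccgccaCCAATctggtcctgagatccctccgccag
Sc4mol (RefSeq symbol Msmo1), chr8:64733579-64733828, minus strand: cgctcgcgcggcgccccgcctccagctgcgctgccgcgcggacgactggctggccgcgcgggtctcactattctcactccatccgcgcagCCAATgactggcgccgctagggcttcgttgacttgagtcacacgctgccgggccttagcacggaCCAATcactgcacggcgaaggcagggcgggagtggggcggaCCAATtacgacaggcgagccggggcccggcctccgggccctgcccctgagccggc
Insig1, chr5:28071162-28071411, plus strand: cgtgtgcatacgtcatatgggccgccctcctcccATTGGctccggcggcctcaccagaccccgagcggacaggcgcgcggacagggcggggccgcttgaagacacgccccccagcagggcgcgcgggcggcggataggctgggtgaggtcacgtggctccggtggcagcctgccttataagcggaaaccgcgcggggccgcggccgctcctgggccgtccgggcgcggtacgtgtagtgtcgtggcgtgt
Sc4mol has 3 boxes, beginning at -160, -96 and -55 from the start. Cyp51 has 1 at -29. Lss has 1 at -62 and Insig1 1 at -216, both on the opposite strand.

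Sterol synthesis genes were most abundant in WT Th2 cells without a vector. Among the 12 libraries, 20 of the 33 genes had their highest level there, including 15 of the 17 genes for steps of sterol synthesis. Over all 14 libraries WT Th2 was highest for 17 of 33 genes and 12 of 17 steps, and WT Th1 replicate 2 for the 4 steps Mvk, Pmvk, Mvd and Fdps. The summed level of these 17 genes was 836.0 FPKM in WT Th2, 505.8 in WT Th1 replicate 1, 301.6 in STAT4 KO Th1 and 309.3 in STAT6 KO Th2. In the vector cultures it was 419.5 in WT Th2 with control vector and between 244.5 and 312.4 in the other 7. The WT Th2 library without a vector also enters the comparisons below of STAT6 loss, its interactions, lineage and vector culture. These share that library, so its high values do not give separate results there. WT Th1 replicate 1 is shared in the same way by the comparisons of STAT4 loss, lineage and vector culture. The steps with the highest single values, both in WT Th2, were Sc4mol and Cyp51. Sc4mol, the methyl oxidase that removes the C4 methyl groups of lanosterol, ranged from 12.5 to 144 FPKM, and Cyp51, lanosterol demethylase, from 33.7 to 135 FPKM. Idi1, which isomerises the isoprenoid building block, ranged from 25.4 to 125 FPKM. By median over the 14 libraries, Idi1 (62.05 FPKM) and Cyp51 (49.06) stood above Sc4mol (23.29). Tm7sf2, a sterol reductase, stayed at 2.12 to 5.40 FPKM. Fdft1, squalene synthase, ranged from 4.99 to 22.4 FPKM, and Stard4, which moves sterol between membranes, from 12.9 to 42.5 FPKM, both highest in WT Th2. In bulk RNA, fewer cells of a type and less RNA per cell cannot be told apart.

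**Figure D1:**
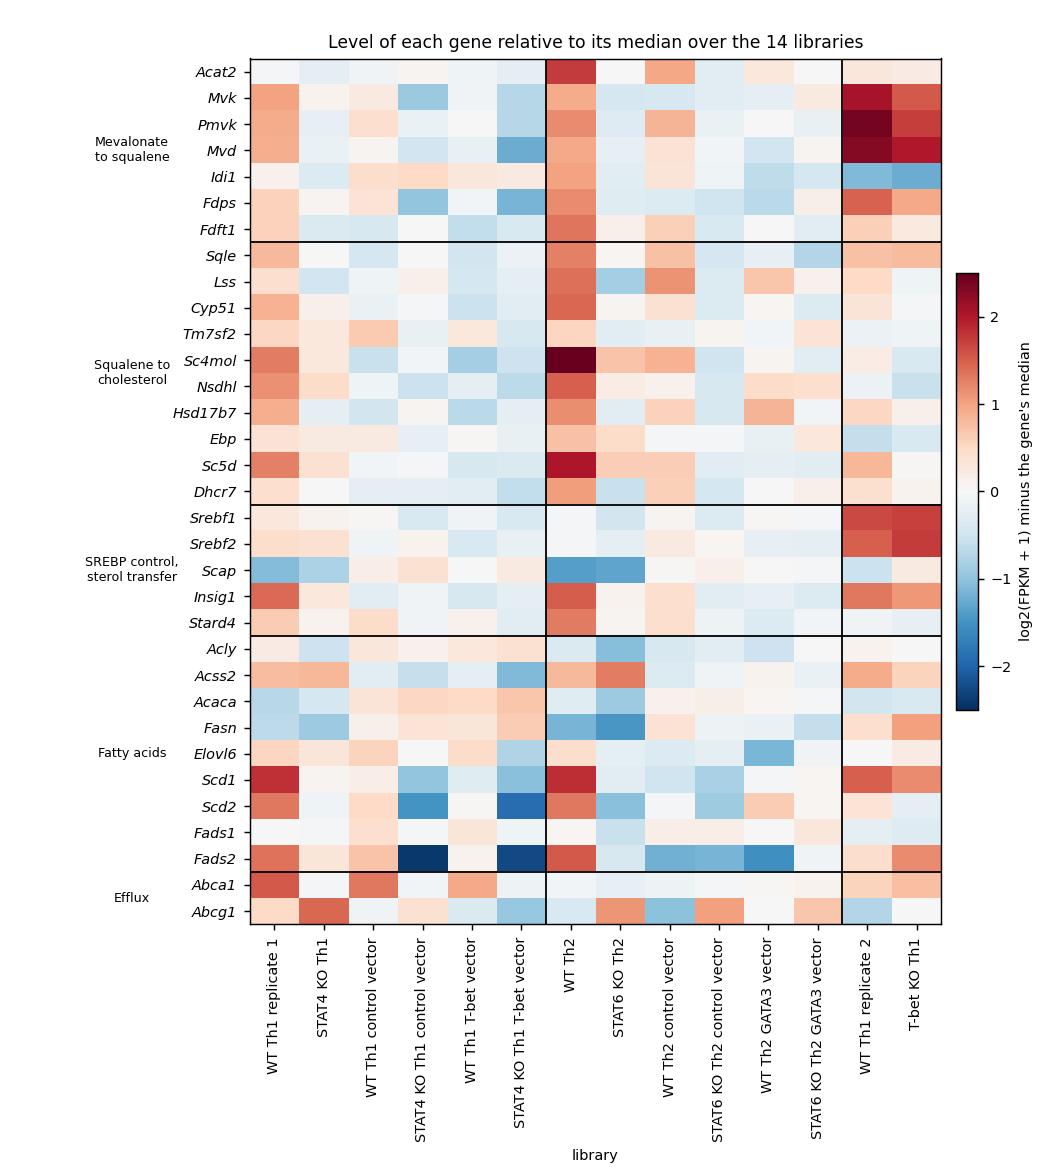
Level of the 33 measured genes (rows, by role) in the 14 libraries (columns), as log2(FPKM + 1) minus the gene's median over the libraries, red above and blue below. WT Th2 is the reddest column for sterol synthesis steps, and WT Th1 replicate 2 and T-bet KO Th1, at the right, share high Mvk, Pmvk, Mvd, Srebf1 and Srebf2.

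Without STAT6, which carries the IL-4 signal, sterol synthesis genes were lower in Th2 cells without a vector, less so with the control vector, and hardly with GATA3. Lss, the cyclase that closes squalene epoxide into lanosterol, had 24.9 FPKM in WT Th2 and 4.56 in STAT6 KO. With the control vector it had 20.8 in WT and 6.85 in STAT6 KO, and with GATA3 15.3 in WT and 9.78 in STAT6 KO. All 3 WT values of Lss lay above all 3 knockout values. Sqle, squalene epoxidase, went from 72.3 to 30.9 FPKM without a vector, from 50.4 to 22.2 with the control vector and from 25.8 to 17.6 with GATA3, so that the lowest WT value fell between the knockout values. Sc4mol had 144, 43.1 and 24.6 FPKM in WT and 38.8, 16.1 and 19.2 in STAT6 KO, in the same order of cultures, and these ranges overlapped. Hsd17b7, the sterol 3-keto reductase, had 21.6, 14.1 and 17.4 in WT and 7.41, 6.67 and 8.62 in STAT6 KO, with no overlap. Acat2, the thiolase that joins acetyl-CoA units, had 25.4, 14.3 and 8.37 in WT against 6.91, 5.52 and 6.72 in STAT6 KO, again with no overlap.

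Summed myeloid markers moved in the same direction, but not each marker did. Their sum was 8.76, 1.67 and 4.30 FPKM in WT Th2 and 0.44, 0.652 and 1.30 in STAT6 KO, without a vector, with the control vector and with GATA3. Most of the first value was Emr1, at 8.42 FPKM, and most of the third Itgax, at 3.34 FPKM, and Csf1r, Lyz2 and Cd14 were under 1 FPKM in all libraries. Without a vector Itgam went the other way, at 0.190 FPKM in WT Th2 and 0.338 in STAT6 KO. With GATA3, Emr1 was 0.413 FPKM in WT and 0.412 in STAT6 KO. The part of these markers' cells in the sterol genes was not tested.

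Counted over the group, 15 of the 17 steps were at least 2-fold lower in STAT6 KO than in WT without a vector, against 5.35% of all tested entries. Here and below, counts of 2-fold differences refer to FPKM + 1. A gene at low FPKM can therefore change more than 2-fold in FPKM without being counted. With the control vector 6 of 17 were, against 2.22%, and with GATA3 0 of 17, against 1.59%. Their median difference in log2(FPKM + 1) was -1.38, -0.88 and -0.07 in these cultures, where the median over all tested entries was 0.04, 0.00 and 0.07. Of all 33 genes, 15 were lower in STAT6 KO in every one of the 3 cultures, as were 17.4% of tested entries. Among SREBP controls, Insig1 was 126.0, 58.6 and 37.6 FPKM in WT and 46.4, 35.6 and 33.9 in STAT6 KO, and Scap, the escort of SREBP, was 12.5, 34.9 and 34.2 in WT and 13.1, 37.4 and 32.9 in STAT6 KO. Insig1 was thus lower in the knockout of each culture and Scap was not. Srebf2, the gene of SREBP2, was 70.2, 84.1 and 62.1 in WT and 62.0, 74.3 and 61.5 in STAT6 KO.

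No gene of the set passed the test for STAT6 loss. The limma fit took 1 STAT6 KO effect over the 3 cultures, with 5 residual degrees of freedom. It called 1.7% of tested entries higher and 1.08% lower at adjusted p under 0.05. Estimates were below 0 for 16 of 17 steps and 27 of 33 genes, with a median of -0.82 for the steps against 0.04 for all entries. At an unadjusted p under 0.05 there were 14 of 33 genes, 11 of them steps, and 20.5% of all entries. The smallest adjusted p was 0.0813, for Lss (-1.43 ± 0.34, standard error, log2, lower in 3 of 3 cultures). Hsd17b7 (-1.11 ± 0.32, adjusted p 0.119), Sc4mol (-1.19 ± 0.37, adjusted p 0.14) and Scd2 (-1.27 ± 0.35, adjusted p 0.11) were also lower in 3 of 3. Single libraries decided whether a gene passed. Without WT Th1 replicate 1, Hsd17b7 (-1.11, adjusted p 0.0355), Sqle (-0.96, adjusted p 0.0445) and Fasn (-0.41, adjusted p 0.0405) passed. Pmvk, a mevalonate pathway kinase, passed without either GATA3 vector library (-1.26, adjusted p 0.0438 and 0.0437), and Dhcr7, the last reductase of the pathway, without STAT6 KO Th2 GATA3 vector (-1.31, adjusted p 0.0499).

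The smaller difference in vector cultures was itself tested in fits added after the data were seen. The interaction of STAT6 KO with vector culture was above 0 for all 17 steps, with a median of 1.01, against 0.00 over all entries. The fit pooled the control vector and GATA3 pairs and had 2 residual degrees of freedom. It called no gene of the set and 0.036% of all entries, and 14 of 33 genes and 19.1% of entries had an unadjusted p under 0.05. The smallest adjusted p in the set was 0.14, for Scd2 (1.66 ± 0.15). The interaction of STAT6 KO with the GATA3 vector was likewise above 0 for 17 of 17 steps, with a median of 1.06 against 0.03. Its reference pooled the pairs without a vector and with the control vector. This interaction therefore also takes in the change with vector culture and is not particular to GATA3. It called none of the 33 genes and 0.117% of entries, and 5 of 33 genes and 4.54% of entries had an unadjusted p under 0.05.

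**Figure D2:**
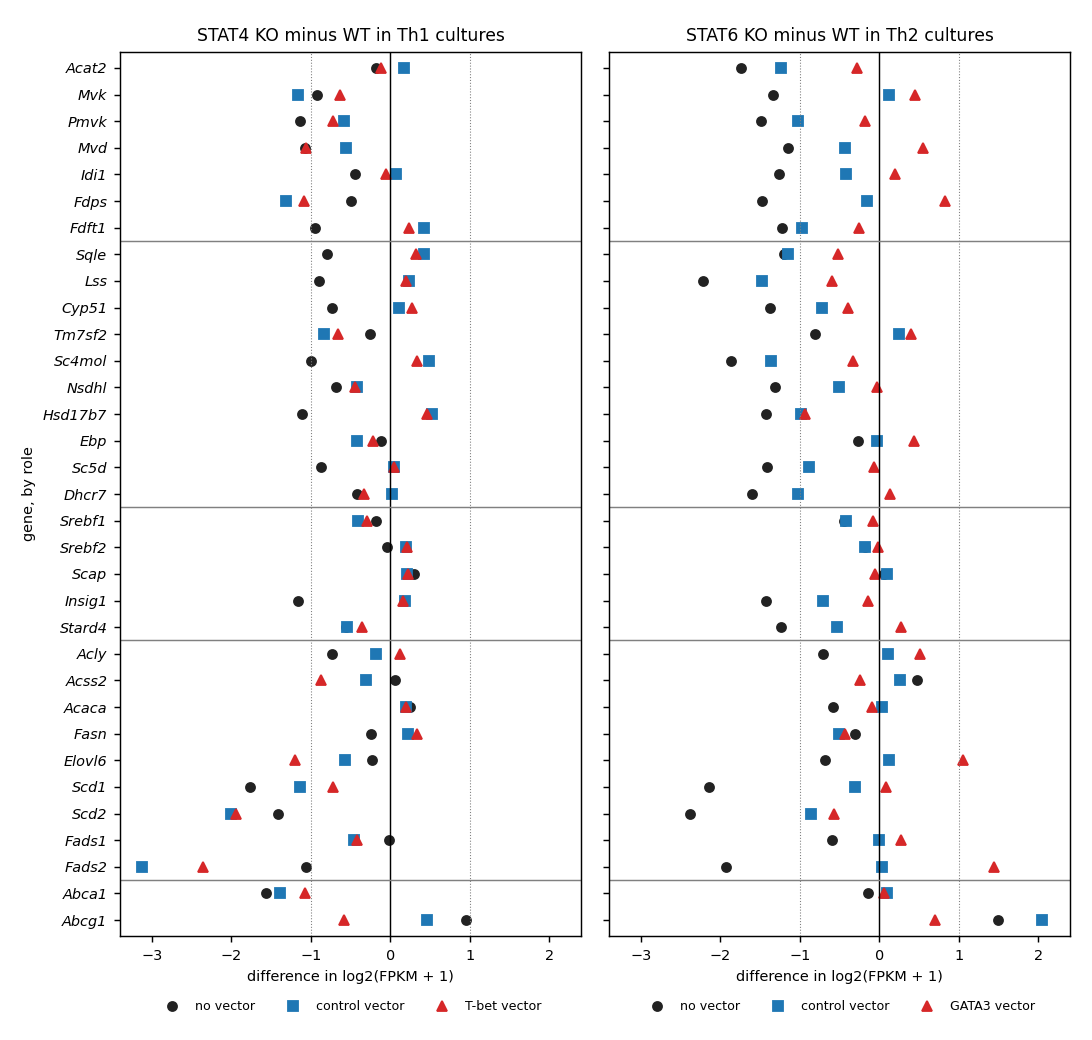
Knockout minus WT difference in log2(FPKM + 1) (x axis) for each gene (y axis, by role) in 3 matched cultures per knockout. Each symbol is 1 pair of libraries, and dotted lines mark a 2-fold difference in FPKM + 1. STAT6 KO symbols without a vector lie left of -1 for 15 of 17 synthesis steps, and STAT4 KO symbols with a vector lie on both sides of 0 there.

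Loss of STAT4, which carries the IL-12 signal, went with lower sterol synthesis genes in Th1 cells without a vector. All 17 steps were lower there than in WT Th1 replicate 1, with a median difference of -0.80 against 0.10 over all entries, and 4 of 17 were at least 2-fold lower, against 4.37% of entries. Against WT Th1 replicate 2, 12 of 17 steps were lower, with a median of -0.50, and 6 of the 10 between squalene and cholesterol. The vector cultures differed from this. Of those 10 genes, 7 were higher in STAT4 KO than in WT with the control vector and 6 with T-bet, and Tm7sf2, Nsdhl and Ebp were lower in both. Sqle had 52.7 FPKM in WT Th1 replicate 1 and 29.9 in STAT4 KO, but 21.9 in WT and 29.7 in STAT4 KO with the control vector, and 21.3 and 26.9 with T-bet. Hsd17b7 had 17.9 against 7.70 without a vector, then 6.41 against 9.66 and 5.31 against 7.65. Both genes thus were lower in STAT4 KO in 1 culture and higher in the other 2. Sc4mol (57.7 and 28.2, 15.4 and 22.0, 12.5 and 16.0) and Lss (12.4 and 6.18, 8.29 and 9.92, 6.36 and 7.46) did so too, each pair giving WT and then STAT4 KO.

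Of the 7 measured earlier enzymes of the pathway, 4 showed another order. Fdps, farnesyl diphosphate synthase, had 45.0, 38.2 and 28.4 FPKM in WT Th1 and 31.6, 14.7 and 12.8 in STAT4 KO, without a vector, with the control vector and with T-bet. Mvk, mevalonate kinase, had 9.86, 5.29 and 4.08 in WT and 4.70, 1.81 and 2.28 in STAT4 KO. Pmvk had 23.7, 16.3 and 11.99 in WT and 10.2, 10.6 and 6.87 in STAT4 KO. The 3 genes, with Mvd, the mevalonate diphosphate decarboxylase (15.8, 8.44 and 6.91 in WT, 7.00, 5.42 and 2.79 in STAT4 KO), were lower in STAT4 KO in every pair. For Fdps, Mvd and Mvk, 1 STAT4 KO value exceeded at least 1 WT value, and for Pmvk all WT values lay above all knockout values. The other 3 early enzymes were higher in STAT4 KO with the control vector. Acat2 had 6.31 in WT and 7.25 in STAT4 KO there, Idi1 83.7 and 88.2, and Fdft1 5.94 and 8.26. In all, 15 of 33 genes were lower in each of the 3 cultures, as were 22.6% of tested entries. At least 2-fold lower with the control vector were 6 of 33 genes, against 3.32%, and with T-bet also 6 of 33, against 2.75%.

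Desaturases had some of the largest differences in STAT4 KO, all toward lower levels. Fads2, the delta-6 desaturase of polyunsaturated fatty acids, lies at chr19:10138654-10175993 (mm9). It had 15.3 FPKM in WT Th1 replicate 1 and 6.82 in STAT4 KO without a vector. With the control vector it had 9.45 in WT and 0.194 in STAT4 KO, and with T-bet 5.76 in WT and 0.323 in STAT4 KO. The deposited intervals of the latter knockout values were 0.0646 to 0.323 and 0.156 to 0.490, far below those of WT. Scd2, a stearoyl-CoA desaturase that makes oleate (chr19:44368166-44381352), had 123, 69.7 and 50.0 FPKM in WT and 45.5, 16.7 and 12.3 in STAT4 KO. Its paralog Scd1 (chr19:44468940-44482199) had 6.77, 1.44 and 0.753 in WT and 1.28, 0.105 and 0.0584 in STAT4 KO. How reads shared by the paralogs were assigned is not stated, so their split is uncertain. Scd2 did not overlap between genotypes, and Fads2 and Scd1 did, through the knockout without a vector. Elovl6, which elongates palmitate, was 9.54, 9.66 and 8.97 in WT and 7.98, 6.18 and 3.33 in STAT4 KO.

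Within STAT6 loss the desaturases followed the culture. Scd2 had 124 FPKM in WT Th2 and 23.0 in STAT6 KO, 47.6 and 25.8 with the control vector, and 76.1 and 50.7 with GATA3. Fads2 had 17.3 and 3.81 without a vector, 1.75 and 1.82 with the control vector, and 1.19 and 4.94 with GATA3, so it was lower in the knockout in 1 of 3 cultures. Scd1 had 6.86 and 0.779, 0.535 and 0.244, and 1.11 and 1.24, each pair giving WT and then STAT6 KO. Fads1, the delta-5 desaturase, ranged only from 2.72 to 6.25 FPKM over all libraries. Palmitate itself is made by Fasn from acetyl-CoA that Acly supplies. Fasn was 28.4, 83.5 and 57.5 in WT Th2 and 22.8, 58.6 and 42.2 in STAT6 KO. Acly was 95.2, 92.3 and 85.5 in WT Th2 and 58.1, 99.7 and 123 in STAT6 KO.

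In the test for STAT4 loss, 1 of 33 genes passed, and it was lower: Abca1, the exporter that hands cholesterol to lipid-poor lipoprotein (chr4:53043661-53172767). The fit called 1.17% of entries higher and 1.94% lower. Abca1 had 2.98, 2.45 and 1.64 FPKM in WT Th1 without a vector, with the control vector and with T-bet. In STAT4 KO Th1 it had 0.349, 0.314 and 0.255 FPKM. The groups did not overlap, and the estimate was -1.34 ± 0.10 on the log2(FPKM + 1) scale (adjusted p 0.009, lower in 3 of 3 cultures). That scale understates the change of a gene this low. Abca1 passed the filter only through WT Th1 and T-bet KO Th1 libraries, where it was high. The call is therefore not separate from that choice. The call was lost with all 14 libraries (-1.16, adjusted p 0.068), without STAT4 KO Th1 control vector (-1.29, adjusted p 0.074), without STAT4 KO Th1 (-1.29, adjusted p 0.0598) and without WT Th1 control vector (-1.35, adjusted p 0.0603). Scd2 just missed the threshold, at -1.79 ± 0.35 (adjusted p 0.0502), and passed with a pseudocount of 0.1 (adjusted p 0.0479), after quantile normalization (0.041), without STAT6 KO Th2 (0.0253) and without WT Th2 (0.0434). Fads2 (-2.18 ± 0.64, adjusted p 0.101), Scd1 (-1.21 ± 0.41, adjusted p 0.142) and Fdps (-0.97 ± 0.40, adjusted p 0.199) were lower in 3 of 3 cultures and did not pass. Estimates were below 0 for all 17 steps and 28 of 33 genes, with a median of -0.26 against 0.03 for all entries, and 10 of 33 genes and 24.3% of all entries had an unadjusted p under 0.05.

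Abca1 is abundant in macrophages, so myeloid markers were set beside it. Csf1r, Lyz2 and Cd14 were under 1 FPKM in all 14 libraries, and the 6 markers summed to 1.92, 0.388 and 0.266 FPKM in the WT Th1 libraries and to 0.502, 0.531 and 0.435 in their STAT4 KO partners. The sum was thus higher in WT in the pair without a vector, through Itgam (1.73 FPKM in WT and 0.328 in STAT4 KO), and lower in WT in both vector pairs. The part of such cells in the Abca1 level was not tested. The highest sum, 8.76 FPKM, was in WT Th2, mostly Emr1 (8.42 FPKM), where Abca1 stood at 0.321 FPKM. Abcg1, the exporter to mature lipoprotein (chr17:31194639-31254926), did not follow Abca1. It had 6.35, 3.95 and 3.06 FPKM in WT Th1 and 13.2, 5.83 and 1.71 in STAT4 KO. In Th2 it had 3.02, 1.57 and 4.19 in WT and 10.3, 9.59 and 7.395 in STAT6 KO, higher in each knockout and with no overlap. Its STAT6 KO estimate was 1.41 ± 0.35 (adjusted p 0.0926, higher in 3 of 3 cultures), which did not pass. Abca1 was 0.321, 0.255 and 0.402 in WT Th2 and 0.198, 0.337 and 0.464 in STAT6 KO.

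The effects of losing STAT4 and STAT6 were compared in the same fit. The test called 1 gene of 33, Abca1, at 1.35 for STAT6 KO minus STAT4 KO (adjusted p 0.011), where 1.74% of entries were called higher and 0.737% lower. The level in WT Th2 limits this value: from 0.255 to 0.402 FPKM, Abca1 could move by -0.33 to -0.49 at most before it reached 0, and its estimate for STAT4 loss was -1.34. It also passed the filter only through Th1 libraries. The value therefore does not compare the effects of STAT4 and STAT6 on Abca1. The call was lost with all 14 libraries (1.17, adjusted p 0.206) and without STAT4 KO Th1 control vector (1.30, adjusted p 0.0552). Without WT Th1 replicate 1, Hsd17b7 (-1.49, adjusted p 0.0498) and Fasn (-0.71, adjusted p 0.0369) differed as well. Over the 17 steps the median difference was -0.53 against 0.00 for all entries. The interaction of STAT4 KO with vector culture, added after the data were seen, called 0 of 33 genes and 0.027% of entries, and 9 of 33 genes and 24.5% of entries had an unadjusted p under 0.05. The smallest adjusted p among them was that of Hsd17b7 (1.61 ± 0.12, adjusted p 0.12). That of STAT4 KO with the T-bet vector called 0 of 33 and 0.018%, with 2 of 33 genes and 1.76% of entries at an unadjusted p under 0.05. Its reference, too, pooled the pairs without a vector and with the control vector.

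**Figure D3:**
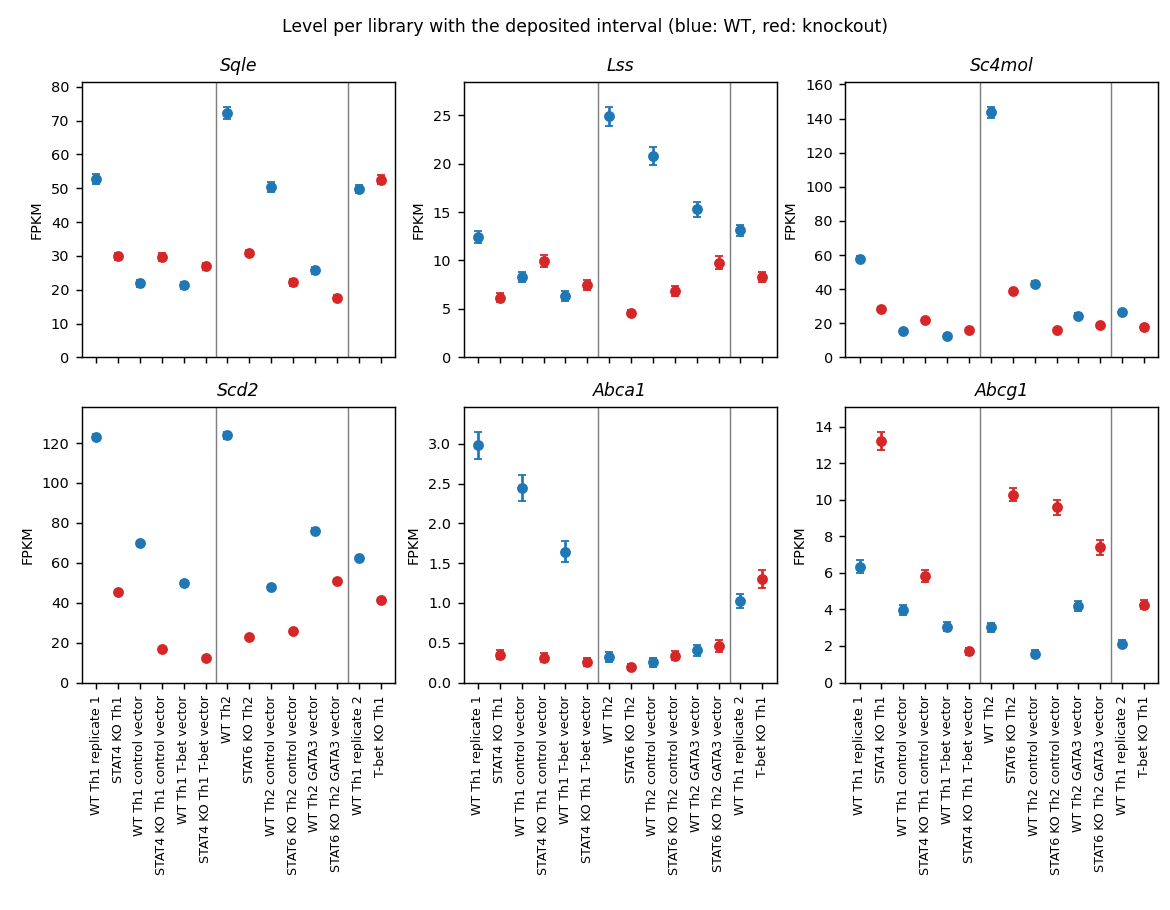
FPKM (y axis, linear from 0) of 6 genes in each library (x axis), with the interval that Cufflinks deposits; blue points are WT and red points knockouts. Abca1 is above 1 FPKM in T-bet KO Th1 and the 4 WT Th1 libraries and below 0.5 in every STAT4 KO and Th2 library, and Scd2 is lower in the knockout in all 6 pairs.

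Between the lineages, WT Th2 cells had more RNA for sterol synthesis and less Abca1 than WT Th1 cells. Without a vector 16 of 17 steps were higher in WT Th2 than in WT Th1 replicate 1, with a median difference of 0.57, and with the control vector 12 of 17, with a median of 0.55. The medians over all entries were 0.01 and -0.07. Against WT Th1 replicate 2, 13 of 17 were higher in WT Th2, with a median of 0.74, and Mvk, Pmvk, Mvd and Fdps were lower. Summed myeloid markers were 8.76 FPKM in WT Th2 and 1.92 in WT Th1 replicate 1, and 1.67 and 0.388 with the control vector, and their part was not tested. Without a vector Itgam went against the sum, at 0.190 FPKM in WT Th2 and 1.73 in WT Th1 replicate 1. At least 2-fold higher in Th2 were 2 of 17 steps without a vector, against 8.0% of entries, and 6 of 17 with the control vector, against 1.74%. Of all 33 genes, 13 were higher in Th2 in both cultures, as were 25.0% of entries. Acat2 had 6.60 and 25.4 FPKM in Th1 and Th2 without a vector and 6.31 and 14.3 with the control vector. Sc4mol had 57.7 and 144, then 15.4 and 43.1, and Lss had 12.4 and 24.9, then 8.29 and 20.8. These 3 genes were thus higher in Th2 in both cultures. The fit estimated 1.21 ± 0.33 for Acat2 (adjusted p 0.0773), 1.25 ± 0.42 for Sc4mol (adjusted p 0.124) and 0.97 ± 0.38 for Lss (adjusted p 0.169), none of which passed.

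The 1 gene called for lineage was Abca1, lower in Th2. Abca1 passed the filter only through WT Th1 and T-bet KO Th1 libraries, where it was high. The call is therefore not separate from that choice. Abca1 was also near 0 in all Th2 libraries. It had 2.98 FPKM in WT Th1 replicate 1 and 0.321 in WT Th2, and 2.45 and 0.255 with the control vector. The estimate was -1.47 ± 0.11 (adjusted p 0.00288), and the fit called 5.17% of entries lower in Th2 and 1.64% higher. It passed in each of the 17 other settings and left-out libraries tried, with adjusted p up to 0.0355. Abcg1 was lower in Th2 in both cultures too (-0.94 ± 0.39, adjusted p 0.193). Acat2 passed without either GATA3 vector library (1.41, adjusted p 0.0418 and 0.0417). Quantile normalization moved the share of lineage calls that were higher in Th2 from 24.0% to 39.2% over all entries and left Abca1 as the call in the set.

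Ectopic T-bet in Th1 cells and ectopic GATA3 in Th2 cells brought no gene of the set past the test. With T-bet, 26 of 33 genes were lower than with the control vector in both genotypes, as were 36.2% of entries, by a median of -0.23 in WT and -0.20 in STAT4 KO. The limma fit called 0 of 33 genes and 0.018% of entries, and 1 gene of the set and 3.85% of entries had an unadjusted p under 0.05. The largest same-signed differences were those of Abcg1 (3.95 to 3.06 FPKM in WT, 5.83 to 1.71 in STAT4 KO), Mvd (8.44 to 6.91, and 5.42 to 2.79) and Pmvk (16.3 to 11.99, and 10.6 to 6.87). All had an adjusted p of 0.956. Fads2 and Scd2 in STAT4 KO Th1 stood at 0.323 and 12.3 FPKM with T-bet and at 0.194 and 16.7 without it, against 9.45 and 69.7 in WT with the control vector. T-bet thus left both genes far below their WT levels.

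With GATA3 most steps changed in opposite directions in WT and STAT6 KO, and their levels came closer. The sum of the 17 steps went from 419.5 to 276.0 FPKM in WT Th2 and from 244.5 to 263.5 in STAT6 KO Th2. The smaller STAT6 KO difference with GATA3 given above comes from the same libraries and is not a separate result. In WT Th2, 13 of 17 steps were lower than with the control vector, with a median of -0.61, and in STAT6 KO Th2 12 of 17 were higher, with a median of 0.24. Sqle went from 50.4 to 25.8 FPKM in WT and from 22.2 to 17.6 in STAT6 KO, and Idi1 from 77.4 to 39.3 and from 57.5 to 45.3. Both were lower with GATA3 in both genotypes. Scd2 went from 47.6 to 76.1 in WT and from 25.8 to 50.7 in STAT6 KO, and Nsdhl, a sterol dehydrogenase, from 6.51 to 8.56 and from 4.26 to 8.33. Scd1 went from 0.535 to 1.11 and from 0.244 to 1.24. These 3 were higher with GATA3 in both genotypes. None of the 33 genes was called, where 2.84% of entries were, and 1 gene and 17.5% of entries had an unadjusted p under 0.05. The smallest adjusted p was 0.282. Without WT Th1 replicate 1, Fasn was called (-0.47, adjusted p 0.0449).

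Vector culture, set against culture without a vector, was the comparison in which most genes of the set passed. It called 9 of 33 genes lower, where 15.2% of entries were lower, and 3 of 33 higher, where 35.8% were higher. The median over all entries was itself raised by 0.15 (log2), and quantile normalization brought it to 0.00. With that normalization 12 genes were lower and 3 higher, and over all entries the share of calls that were higher moved from 70.3% to 54.2%. Day, retrovirus and medium cannot be told apart in this comparison, nor, in Th2, a difference in restimulation.

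Over the 17 steps, control vector minus no vector had a median of -0.79 in WT Th1 and -0.75 in WT Th2. It was -0.24 in STAT4 KO Th1 and -0.21 in STAT6 KO Th2. In that order 15, 17, 11 and 10 steps were lower, and medians over all entries were 0.25, 0.12, 0.13 and 0.13. Among sterol genes, Sc4mol fell by 1.28 ± 0.32 (log2, adjusted p 0.0158). Without a vector it had 57.7, 28.2, 144 and 38.8 FPKM in WT Th1 replicate 1, STAT4 KO Th1 and, for Th2, WT and STAT6 KO. With the control vector it had 15.4, 22.0, 43.1 and 16.1 in the same order. Nsdhl fell by 1.05 ± 0.19 (adjusted p 0.00459), from 14.4, 8.54, 18.7 and 6.95 to 5.47, 3.83, 6.51 and 4.26 FPKM, with no overlap. Sc5d, the lathosterol desaturase, fell by 0.997 ± 0.247 (adjusted p 0.0149), from 46.9, 25.1, 80.8 and 29.6 to 18.3, 18.8, 29.9 and 15.8 FPKM. Cyp51 fell by 0.67 ± 0.21 (adjusted p 0.0353), from 90.4, 53.7, 135 and 51.2 to 43.7, 47.1, 64.5 and 38.7 FPKM. These 4 genes were lower with the vector in 4 of 4 pairs. Ebp, which moves the ring double bond, fell by 0.46 ± 0.14 (adjusted p 0.0289), from 22.1, 20.2, 29.1 and 23.9 to 20.01, 14.7, 16.8 and 16.4 FPKM. Insig1 fell by 0.88 ± 0.28 (adjusted p 0.0389), from 118, 52.2, 126.0 and 46.4 to 35.6, 40.6, 58.6 and 35.6 FPKM, with WT values above those of the knockouts without a vector and STAT4 KO above WT Th1 with it.

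Fatty acid genes split. Fasn rose by 1.22 ± 0.13 (adjusted p 0.000557), from 40.7, 34.1, 28.4 and 22.8 FPKM without a vector to 70.9, 82.4, 83.5 and 58.6 with it. Acaca, acetyl-CoA carboxylase, rose by 0.86 ± 0.12 (adjusted p 0.00171), from 2.80, 3.51, 3.96 and 2.30 to 6.69, 7.80, 5.64 and 5.81 FPKM. Scap rose by 1.32 ± 0.07 (adjusted p 0.000117), from 15.6, 19.3, 12.5 and 13.1 to 38.7, 44.8, 34.9 and 37.4 FPKM. For these genes the values with and without a vector did not overlap. Acss2, which makes acetyl-CoA from acetate, fell by 1.23 ± 0.18 (adjusted p 0.00171), from 6.60, 6.91, 6.83 and 9.86 to 2.76, 2.02, 2.53 and 3.22 FPKM, also without overlap. Scd1 fell by 1.40 ± 0.36 (adjusted p 0.0171), from 6.77, 1.28, 6.86 and 0.779 to 1.44, 0.105, 0.535 and 0.244 FPKM. Fads2 fell by 1.71 ± 0.55 (adjusted p 0.038), from 15.3, 6.82, 17.3 and 3.81 to 9.45, 0.194, 1.75 and 1.82 FPKM. Scap, Fasn, Acaca, Acss2 and Nsdhl passed in each of the 17 other settings and left-out libraries, and Fads2 and Insig1 in 7 of 17, Cyp51 and Ebp in 9 of 17. With all 14 libraries the calls of Fads2 (-1.47, adjusted p 0.071) and Ebp (-0.28, adjusted p 0.425) were lost. The count of called genes ranged from 6 without STAT6 KO Th2 control vector and 7 without WT Th2 control vector to 15 without STAT6 KO Th2. Of the rest, Scd2 (-0.85, adjusted p 0.0523) came nearest to passing.

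**Figure D4:**
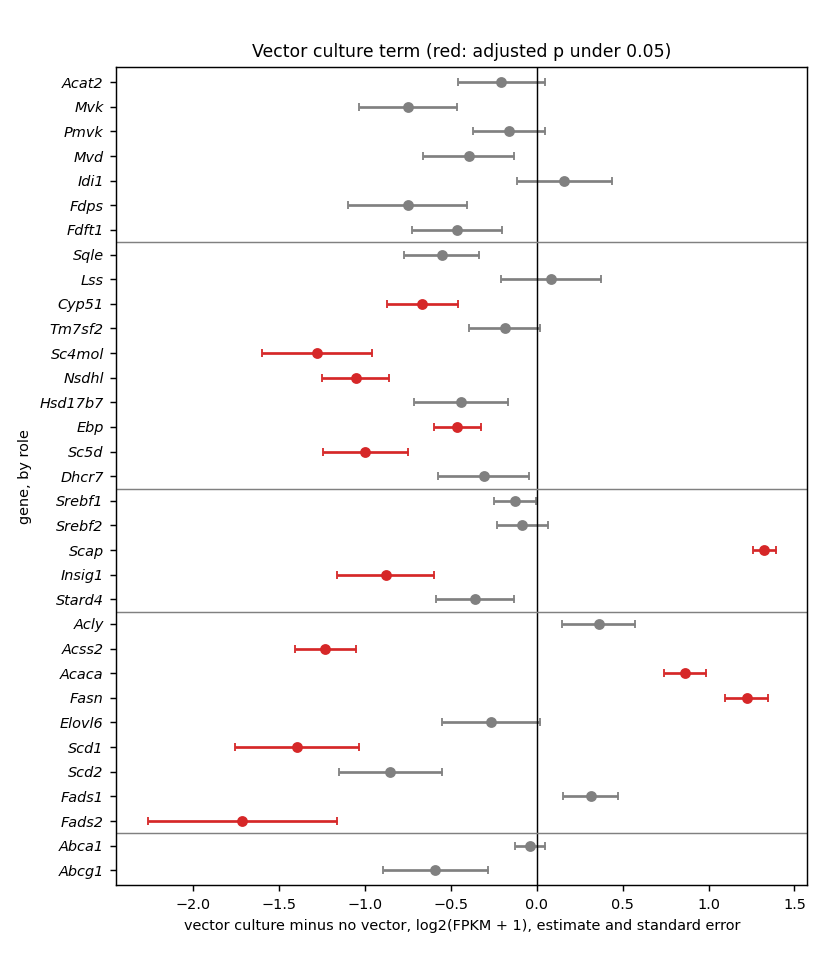
Vector culture term of the 12-library fit (x axis, log2(FPKM + 1), point and standard error) for each gene (y axis, by role); red points have an adjusted p under 0.05. Scap, Fasn and Acaca lie at 0.86 to 1.32, and the 9 red points to the left run from -0.46 for Ebp to -1.71 for Fads2.

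T-bet loss was measured in 1 library, which stood apart together with WT Th1 replicate 2. Against that replicate alone, 0 of 33 genes differed at least 2-fold in either direction, where 3.69% of entries did, and 14 of 17 steps were lower, by a median of -0.38 over the steps against -0.02 over all entries. Sc5d had 19.4 FPKM in T-bet KO against 34.6 in the replicate, Pmvk 42.0 against 66.6, and Scd2 41.3 against 62.2. Scap had 40.0 against 23.2, and Fasn 133 against 86.7. The fit over 14 libraries called 0 of 33 genes and 0.018% of entries for T-bet KO, with 4 of 33 genes and 14.5% of entries at an unadjusted p under 0.05. Without WT Th1 replicate 2, the estimates were 1.96 for Fasn, 1.56 for Srebf2, 1.5 for Srebf1 and -1.58 for Nsdhl. T-bet KO was then set only against libraries from which it stood apart. Genotype and library set cannot be told apart in these values. In that replicate and T-bet KO alike, Srebf2 (205 and 244 FPKM) and Srebf1 (80.2 and 83.3) exceeded every other library, where they reached at most 97.9 and 30.1. The 2 WT Th1 replicates also differed in Pmvk (23.7 and 66.6 FPKM), Mvd (15.8 and 42.9) and Abca1 (2.98 and 1.02). Across the set, 4 of 33 genes were at least 2-fold lower and 6 at least 2-fold higher in replicate 2 than in replicate 1, against 11.9% and 13.7% of entries.

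Neighbouring lipid genes came from lists made with earlier results of these data known. Of 16 tested genes of fatty acid supply and elongation, 2 fell and 1 rose with STAT4 loss, where 1.94% of all entries fell and 1.17% rose. Elovl5, which elongates polyunsaturated fatty acids, had 163, 71.1 and 60.1 FPKM in WT Th1 without a vector, with the control vector and with T-bet, and 82.3, 38.5 and 26.1 in STAT4 KO. It fell by 1.01 ± 0.08 (adjusted p 0.009, lower in 3 of 3 cultures) and passed in 13 of 17 other settings and left-out libraries. That call was lost with all 14 libraries (adjusted p 0.108). Dgat1, which makes triglyceride, had 143, 56.0 and 50.8 FPKM in WT and 8.76, 9.23 and 6.80 in STAT4 KO, with no overlap. It fell by 3.03 ± 0.56 (adjusted p 0.0435) and passed in 7 of 17 settings, with an adjusted p of up to 0.189 without STAT4 KO Th1 control vector. Mcat, of mitochondrial fatty acid synthesis, rose by 0.50 ± 0.09 (adjusted p 0.0476), a call kept in 1 of 17 settings. Of 8 tested genes of sterol synthesis and uptake outside the set, 1 fell: Npc2, which moves cholesterol out of lysosomes (-0.67 ± 0.06, adjusted p 0.0127). It was called in 11 of 17 settings, and not with all 14 libraries (adjusted p 0.128).

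With STAT6 loss, 1 of 10 LXR pathway and storage genes rose and 1 fell, where 1.7% of all entries rose and 1.08% fell. The phosphodiesterase Smpdl3a had 6.87, 2.30 and 0.758 FPKM in WT Th2 and 52.5, 9.24 and 5.12 in STAT6 KO. It rose by 2.07 ± 0.23 (adjusted p 0.0122, higher in 3 of 3 cultures) and missed the threshold only without STAT6 KO Th2 control vector (adjusted p 0.063), among 17 settings. Lpcat3, which adds polyunsaturated chains to phospholipid, fell by 0.94 ± 0.14 (adjusted p 0.0266), called in 8 of 17 settings. With GATA3, Soat1, which esterifies cholesterol for storage, went from 14.1 to 52.3 FPKM in WT Th2 and from 8.44 to 44.2 in STAT6 KO. It rose by 2.05 ± 0.22 (adjusted p 0.00761) and passed in 17 of 17 settings. In vector culture, 9 of 12 isoprenoid branch genes rose, which use the pathway's intermediates for prenyl groups, dolichol and ubiquinone, where 35.8% of all entries rose. After quantile normalization 6 of 12 did, and 26.3% of entries. Of 12 SREBP processing and degradation genes, 7 rose, and after quantile normalization 5 rose and 3 fell, where 26.3% of entries rose and 22.2% fell. Among them Mtor, the kinase that promotes SREBP activity, rose by 1.13 ± 0.11 (adjusted p 0.000387). With all 14 libraries, 3 of the 12 SREBP processing and degradation genes and 7 of the 12 isoprenoid branch genes rose. Over all entries 2599 of 11121 did.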

How the data were processed

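RNA was measured in 14 of the 38 samples of the series; the ChIP samples are not analysed here. The authors deposited gene tables whose columns are FPKM from Cufflinks with its interval, per the file headers. The submitters' processing notes name TopHat, Cufflinks and build mm9, without versions. The tables hold no counts, so depth enters only through the deposited intervals.

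Values were analysed as log2(FPKM + 1) with limma 3.58.1 in R 4.3.3 (moderated variance with a trend). Tests ran over all 11121 entries that reached 1 FPKM in 2 or more libraries, after 118 entries with a failed estimate were removed. P-values were adjusted by Benjamini-Hochberg and called at an adjusted p under 0.05. The additive fit used 12 libraries, with a term each for Th2 against Th1, each knockout (STAT4, STAT6), culture with a vector, and each vector factor (T-bet, GATA3). T-bet KO came from a fit of all 14 libraries. Each group has 1 library except WT Th1, so the terms rest on additivity over matched cultures. The code was tested on simulated data.

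The genes and lists were chosen with earlier results of these data known. Every gene of the set with 1 locus was accounted for. Full values are given for genes called, and for up to 5 genes per comparison with the largest mean matched difference among those with the same sign in every matched pair; other genes are named for their role or to show a contrast and were picked after their values were seen. Neighbouring genes are named only where called, and some are not reported here. Alternatives were all 14 libraries, a pseudocount of 0.1 FPKM, no filter, quantile normalization, vector culture by lineage, a batch term for T-bet KO, and leaving out each library. Interactions of knockout with vector culture and with the transcription factor vectors, and matched differences against WT Th1 replicate 2, were added after the data were seen.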

Additional observations from a re-analysis of the deposited data

Results flagged for a closer look

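The effects of STAT6 loss in Th2 and STAT4 loss in Th1 were set against each other by the limma test of the difference itself, which called 1 gene of the set and 4 neighbouring lipid genes. Over all entries 1.74% were called higher and 0.737% lower. The neighbours called were all higher. They were 1 of 16 tested genes of fatty acid supply and elongation, 1 of 10 of LXR pathway and storage, and 2 of 8 of sterol synthesis and uptake. None was called of 12 SREBP processing and degradation, 12 isoprenoid branch and 13 fatty acid oxidation genes. Values are STAT6 KO minus STAT4 KO in log2(FPKM + 1). Abca1 had 1.35 (adjusted p 0.011), called in 15 of 17 other settings and left-out libraries. At 0.255 to 0.402 FPKM in WT Th2, Abca1 could not fall as far as in Th1 on this scale, so its value does not compare the effects of the 2 factors. The difference of Elovl5 was 1.19 (adjusted p 0.00712) and was called in 16 of 17 settings. Smpdl3a had 2.17 (adjusted p 0.0325), called in 7 of 17. Npc1, which exports cholesterol from lysosomes together with Npc2, had 0.98 (adjusted p 0.0459), called in 3 of 17. Npc2 had 0.51 (adjusted p 0.0434), called in 4 of 17. With all 14 libraries none of Abca1, Elovl5, Npc1 and Npc2 was called, with adjusted p of 0.206, 0.215, 0.241 and 0.468.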

How the results depend on the processing

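In counts of called genes of the set, 116 of 136 settings kept the count within 1.5 times of that reported, and no called gene reversed. With all 14 libraries, 0 genes were called for STAT4 KO and 0 for STAT6 KO minus STAT4 KO. A pseudocount of 0.1 and quantile normalization each gave 2 for STAT4 KO. For vector culture the count was 10 with all 14 libraries, 8 with no filter, 15 after quantile normalization and 9 with vector culture by lineage. Leaving out 1 library at a time gave 1 to 2 calls for lineage, 6 to 15 for vector culture, 0 to 2 for STAT4 KO, 0 to 3 for STAT6 KO, 0 to 3 for STAT6 KO minus STAT4 KO, 0 to 1 for the GATA3 vector and 0 to 8 for T-bet KO. The cause of these changes was not tested. The highest count for T-bet KO came without WT Th1 replicate 2, where genotype and library set cannot be told apart. No paired analysis was possible because replicate numbers match no samples across groups, each of which holds 1 library except WT Th1. Libraries were instead matched by culture, which is how the additive fit compares genotypes; the fit with vector culture by lineage gives every culture its own level. With so few libraries, a gene that missed the threshold is not shown to be equal between groups, and low genes such as Abca1 and Scd1 carry wide counting intervals.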
